A study of Mus musculus with 6 samples.

Results

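The small nucleolar RNA (snoRNA) host genes described here were Gas5, Snhg1, Snhg3, Snhg5, Snhg6, Snhg8, Snhg12, Snhg16, Snhg17 and Zfas1. They were taken as the probe sets whose platform annotation names one of these symbols alone, which gave 20 probe sets of the 34945 that name a single gene, and 10 genes of the 18193 tested. The genes were selected with results of the same arrays known, so their values are a description and no test is drawn from them. Expression was measured on 6 Affymetrix mouse arrays of bulk RNA from hepatocellular carcinoma cells cultured in DMEM with serum, 2 arrays for each of 3 related lines. BL185 is the parent line, and M1 and I1 are migratory subpopulations selected from it, titled subclone lines by the submitters. No unselected subclone was measured, and the labels name no genotype, animal age or drug. Nothing in the labels states that paired arrays of a line were cultured apart. A p-value below therefore reflects array-to-array spread alone, and that spread may be technical. In bulk RNA, fewer cells carrying a transcript and less of it in each cell cannot be told apart.

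A snoRNA host gene is transcribed as a precursor whose introns are trimmed to snoRNAs, the guide RNAs that direct methylation and pseudouridylation of ribosomal RNA. In the noncoding hosts the spliced exons carry only short reading frames, and for several of them ribosomes that stop early on these frames bring in nonsense-mediated decay, so that the spliced RNA builds up when translation is blocked. Many hosts begin transcription in a pyrimidine run like that of the terminal oligopyrimidine (TOP) mRNAs, the growth-regulated messengers of ribosomal proteins and translation factors. The labelling kit primes from the poly(A) tail, and which transcript form each probe set reads was not tested.

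In RefSeq (assembly GRCm38.p6) all 10 hosts are long noncoding RNA genes, with spans from 785 to 7823 bases and 34 annotated snoRNA genes inside them. Gas5 and Snhg1 hold 8 each and Snhg12 holds 4, with symbols of both the box C/D kind (Snord99) and the box H/ACA kind (Snora16a, Snora44 and Snora61). Snhg16 holds Snord1a, Snord1b and Snord1c, Zfas1 holds 3 including Snord12, and Snhg3 holds Snora73a and Snora73b. Snhg5 and Snhg17 hold 2 each, Snhg6 holds Snord87, and Snhg8 holds Snora24. Of the 34, 14 carry a Snord or Snora symbol and 20 a provisional one.

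Promoter windows were found for 9 of the 10 hosts, 11 windows in all, and Snhg6 had no entry. The windows of the 2 hosts with the largest differences from BL185 (Snhg12 and Snhg16), of Gas5, of Snhg8, and of Snhg3, the host that was not lower in the selected lines, are printed as examples with a pyrimidine run at the start, and those of Snhg1 and Zfas1 as examples without one. Gas5 has a second window, and Snhg17 has 2, none of which holds a run. Each is 5′ to 3′ on the gene's strand, with 70 bases before the annotated start and 30 bases from it, and capitals mark a start-site pyrimidine run, defined as a C followed by at least 4 bases that are C or T. They lie at chr4:132308608-132308707 (plus strand) for Snhg12, chr11:116671590-116671689 (plus) for Snhg16, chr1:161035096-161035195 (plus) for Gas5, chr3:123508307-123508406 (minus) for Snhg8, chr19:8723417-8723516 (plus) for Snhg1, chr2:167062864-167062963 (plus) for Zfas1 and chr4:132353657-132353756 (minus) for Snhg3, on GRCm38.p6 as given by RefSeq.
Snhg12: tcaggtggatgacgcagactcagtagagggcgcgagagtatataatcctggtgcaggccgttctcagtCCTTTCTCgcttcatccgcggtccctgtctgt
Snhg16: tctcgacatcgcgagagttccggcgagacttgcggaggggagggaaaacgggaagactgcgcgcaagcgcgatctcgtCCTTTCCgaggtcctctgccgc
Gas5: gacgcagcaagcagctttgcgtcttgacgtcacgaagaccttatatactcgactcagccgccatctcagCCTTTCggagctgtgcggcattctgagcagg
Snhg8: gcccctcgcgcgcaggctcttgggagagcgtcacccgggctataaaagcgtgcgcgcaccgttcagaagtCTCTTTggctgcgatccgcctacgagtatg
Snhg3: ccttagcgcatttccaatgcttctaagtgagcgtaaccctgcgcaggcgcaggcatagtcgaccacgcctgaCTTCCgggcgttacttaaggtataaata
Snhg1: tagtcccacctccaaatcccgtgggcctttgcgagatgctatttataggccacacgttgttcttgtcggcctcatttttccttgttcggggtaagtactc
Zfas1: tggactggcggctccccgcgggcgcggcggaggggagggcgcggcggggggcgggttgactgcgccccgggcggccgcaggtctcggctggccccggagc

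A run of this kind, searched on the sense strand within 10 bases of the annotated start, was present in 6 of the 11 host windows (Gas5, Snhg3, Snhg5, Snhg8, Snhg12 and Snhg16) and in 30.7% of all 32851 promoter windows of 300 bases. Snhg3 therefore held the run, along with 5 of the lower hosts. Snhg1 had a pyrimidine stretch after its annotated start that opens with T, which the definition leaves out. Other motifs were searched on both strands of the whole window. The TATA-type TATAAA was found in 4 host windows (Snhg1, Snhg3, Snhg5 and Snhg8) against 13.6% of all windows. In the printed sequences the match lay before the start on the sense strand in Snhg8. It was on the opposite strand in Snhg1 and after the annotated start in Snhg3. The E-box CACGTG, the site that MYC proteins bind, was found in 0 against 7.15% of all, and the palindrome known as the Kaiso (Zbtb33) motif in 0 against 0.466% of all. These matches describe the letters of the windows and carry no statement on binding.

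The arrays differed in ways that touch every result below. The standard deviation between the 2 arrays of a line, taken over all genes, was 0.65 in M1, 0.16 in I1 and 0.1 in BL185, and over the 10 hosts it was 0.63, 0.12 and 0.1. M1 replicate 1 held 1797 probe sets above a log2 value of 12 against 2629 to 3317 on the other arrays, and its 18S ribosomal control signal was 12.5 against 10.11 to 11.51. The 3′ minus 5′ difference of the Actb control was 0.88 and 1.08 in BL185 and 1.24 to 1.47 in the selected lines. The part of these array differences in the host values was not tested. Of the liver markers, Krt8 (14.94 to 15.23) and Hnf4a (11.94 to 13.34) were high on all 6 arrays, whereas Alb (7.53 to 8.43) lay close to the array medians of 7.87 to 8.11. None of the 8 liver, 6 stellate and 5 endothelial markers was called in either selected line by limma, and 0 passed an unadjusted p of 0.05. The log2 values of the 6 leukocyte markers summed to 52.2 and 52.4 in BL185, 47.4 and 50.8 in M1 and, in I1, 48.7 and 49.5. Of these markers, Cd68 fell in both selected lines (10.74 and 10.56 in BL185, 7.37 to 7.78 in the others). Cd53 fell by -1.66 in M1 (limma adjusted p = 0.0469) and differed by -1.46 in I1 (limma adjusted p = 0.0766). The other 4 were not called, at 0.47 in M1 for the pan-leukocyte marker Ptprc, 0.61 for Lyz2, 0.50 for Csf1r and 0.04 for Adgre1. The leukocyte list's median was 0.26 in M1 and 0.20 in I1, and Ptprc was below the array medians throughout (6.25 to 7.17). The part of these markers in the host values was not tested.

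Of the 10 hosts, 9 were lower in both selected lines than in BL185. In each of these 9, all 4 arrays of M1 and I1 lay below both BL185 arrays, an ordering shown by 23.3% of all genes. The median host difference was -1.76 on the log2 scale in M1 and -1.65 in I1, beside 0.07 and 0.06 over all genes tested. The hosts were also set beside the 9974 genes whose mean signal lay in the hosts' own range (8.4 to 13.11). The median of those genes was -0.30 in M1 and -0.11 in I1. Of the 9974, 3885 had both M1 arrays below both BL185 arrays, and 4785 had both I1 arrays below them. With M1 replicate 1 left out, the host median in M1 was -1.39 and that of the genes of like signal 0.01. After quantile normalization the host medians were -1.48 in M1 and -1.53 in I1, and the genes of like signal stood at 0.01 and 0.09.

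At least 2-fold lower values were found for 9 of 10 hosts in each selected line. Over all genes the share was 10.6% in M1 and 5.82% in I1, and over the genes of like signal 17.9% and 9.36%. The host count depended on the setting. Without M1 replicate 1, Snhg1 (-0.88) and Snhg17 (-0.55) fell short of 2-fold in M1. After quantile normalization Snhg8 (-0.99) and Snhg17 (-0.71) did in M1, and Snhg17 (-0.88) in I1. With probe sets averaged Snhg1 (-0.66) and Snhg5 (-0.35) did in M1, and Snhg5 (-0.42) in I1. By limma (an adjusted p under 0.05 over 18193 genes), 3 hosts were called lower in M1 (Snhg12, Snhg16 and Zfas1) and 0.605% of all genes were; 2 were called lower in I1 (Snhg12 and Snhg16) and 0.319% of all genes were. Snhg12 and Snhg16 were called lower in both, as were 0.28% of all genes. No host was called higher, beside 0.275% of all genes in M1 and 0.192% in I1, and 0 hosts were higher at an unadjusted p under 0.05, beside 3.92% of all genes in M1 and 4.18% in I1. These counts come from the contrasts that chose the genes, and nothing is read from them. The number of calls depended on single arrays. Without M1 replicate 1, all 10 hosts were called in M1 (9 lower, Snhg3 higher, against 12.3% of all genes lower and 11.7% higher), and without M1 replicate 2 the 9 lower hosts were, against 38.4% of all genes lower. In I1 all 10 were called without either M1 array (9 lower and Snhg3 higher, against 24.1% and 22.5% of all genes). After quantile normalization 8 hosts were called lower in each line, against 2.98% of all genes in M1 and 2.05% in I1, and after cyclic loess 9 in each, against 5.41% and 4.28%. Array weights called 5 hosts lower in M1, against 1.28% of all genes, and all 10 in I1, against 24.1% lower and 22.9% higher. When a BL185 or I1 array was the one left out, 0 hosts and 0 genes were called in any comparison. M1 and I1 were compared with the same BL185 arrays, so their values stand side by side and are not independent.

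**Figure D1:**
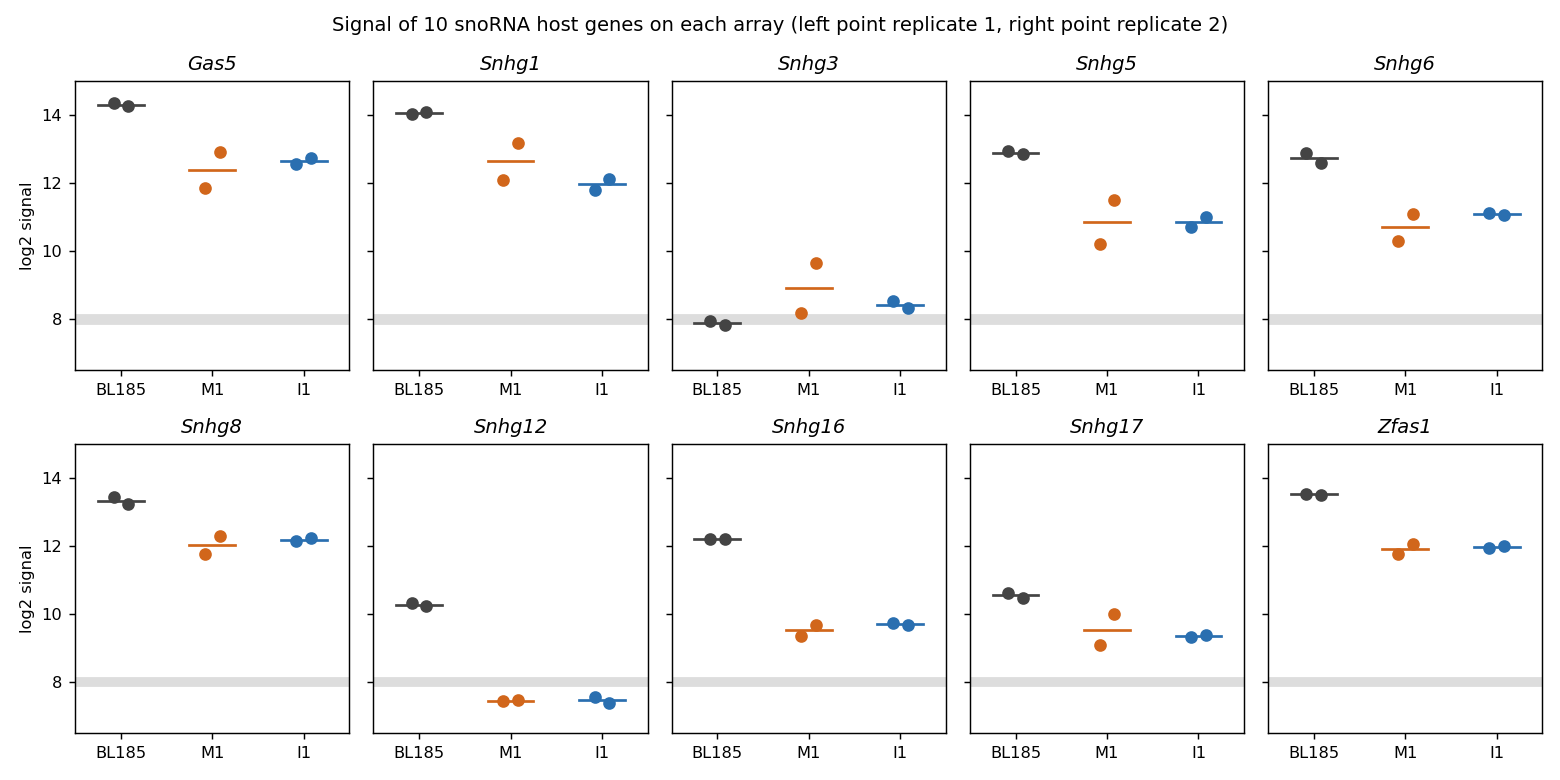
Log2 signal of the 10 hosts on each array (points, 2 per line, grouped as BL185, M1 and I1; bars are line means), with the range of the array medians as a grey band. Snhg3 is the host whose selected-line arrays lie above both BL185 arrays, and Snhg12 lies below the band in M1 and I1.

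Snhg12 and Snhg16 showed the largest differences. Snhg12, host of both kinds of snoRNA, read 10.33 and 10.22 on the BL185 arrays, 7.44 and 7.46 on the M1 arrays and 7.55 and 7.39 on the I1 arrays. Its change was -2.82 ± 0.17 (SE) in M1, or 7.07-fold (limma adjusted p = 0.0121), and -2.80 ± 0.17 in I1 (adjusted p = 0.0233). Both selected lines lay below the array medians for Snhg12, so the size of this fall is not exact. Snhg16, host of the Snord1 family, read 12.2 and 12.19 in BL185, 9.36 and 9.68 in M1 and, in I1, 9.73 and 9.67. The 4 selected-line arrays of Snhg16 were close together and far below the parent. Its change was -2.68 ± 0.19 in M1, or 6.39-fold (limma adjusted p = 0.0168), and -2.50 ± 0.19 in I1, or 5.64-fold (adjusted p = 0.0287). Without M1 replicate 1 the M1 values were -2.81 for Snhg12 and -2.51 for Snhg16. With both Snhg16 probe sets averaged, its change was -1.56 in M1. Among all genes ordered from the lowest change, Snhg12 stood at 58 in M1 and 25 in I1, and Snhg16 at 65 and 38.

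Zfas1, transcribed head to head with the gene Znfx1, read 13.53 and 13.5 in BL185, 11.76 and 12.05 in M1 and, in I1, 11.94 and 11.99. The 4 selected-line arrays of Zfas1 lay close together. Its change was -1.61 ± 0.18 in M1 (3.05-fold, limma adjusted p = 0.0382) and -1.55 ± 0.18 in I1 (2.93-fold, adjusted p = 0.0541), so Zfas1 passed the threshold in M1 and missed it in I1. Its M1 value was -1.46 when M1 replicate 1 was left out. Whether the 2 changes of Zfas1 differ is given by the I1 minus M1 comparison, in which it was not called. The standard deviation between the M1 arrays was 0.02 for Snhg12, 0.23 for Snhg16 and 0.21 for Zfas1, and 0.38 (Snhg8) to 1.04 (Snhg3) for the other hosts.

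Gas5, named for its accumulation in growth-arrested cells, is a much used example of a host whose spliced RNA is decayed during translation. It read 14.34 and 14.27 in BL185, 11.86 and 12.91 in M1 and, in I1, 12.57 and 12.74. The groups did not overlap, and M1 replicate 1 was the lowest array. The difference was -1.92 ± 0.37 in M1 (limma adjusted p = 0.103) and -1.65 ± 0.37 in I1 (adjusted p = 0.173), and without M1 replicate 1 it was -1.39 in M1. Snhg1, the other host of 8 snoRNAs, read 14.03 and 14.09 in BL185, 12.1 and 13.18 in M1 and, in I1, 11.8 and 12.12. Snhg1 was 1 of 2 hosts, with Snhg17, whose estimate was lower in I1 than in M1 among the 9 lower hosts, at -2.10 ± 0.38 in I1 (limma adjusted p = 0.119) against -1.42 ± 0.38 in M1 (adjusted p = 0.196). Without M1 replicate 1 the M1 value of Snhg1 was -0.88, and with its probe sets averaged it was -0.66.

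Snhg5 and Snhg6 were lower by about 4-fold in M1, with wider errors than those of Snhg12 and Snhg16. Snhg5 holds 2 snoRNA genes. Snhg5 read 12.93 and 12.86 in BL185, 10.22 and 11.51 in M1 and, in I1, 10.72 and 11.01. Its difference was -2.03 ± 0.44 in M1 (limma adjusted p = 0.13) and -2.02 ± 0.44 in I1 (adjusted p = 0.163), and -1.38 in M1 without M1 replicate 1. Snhg6, host of Snord87, read 12.89 and 12.6 in BL185, 10.3 and 11.09 in M1 and, in I1, 11.13 and 11.07. Its difference was -2.05 ± 0.3 in M1 (limma adjusted p = 0.0647) and -1.64 ± 0.3 in I1 (adjusted p = 0.122), and -1.65 in M1 without M1 replicate 1. With each gene's probe sets averaged, Snhg5 was -0.35 in M1 and -0.42 in I1. By the brightest probe set, neither host overlapped the parent on any array.

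Snhg8 and Snhg17 were lower by smaller amounts. Snhg8, host of Snora24, read 13.44 and 13.23 in BL185, 11.76 and 12.3 in M1 and, in I1, 12.13 and 12.23, a difference of -1.30 ± 0.24 in M1 (limma adjusted p = 0.0963), -1.03 without M1 replicate 1, and -1.16 ± 0.24 in I1 (adjusted p = 0.155). Snhg17 read 10.62 and 10.46 in BL185, 9.08 and 9.99 in M1 and, in I1, 9.32 and 9.38. Its difference was -1.01 ± 0.33 in M1 (limma adjusted p = 0.262), -0.55 without M1 replicate 1, and -1.19 ± 0.33 in I1 (adjusted p = 0.246). In M1, Snhg17 stood at 1897 of the 18193 genes from the lowest change, and Snhg8 at 1034.

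Snhg3, host of Snora73a and Snora73b, stood apart. It read 7.96 and 7.82 in BL185, 8.18 and 9.64 in M1 and, in I1, 8.52 and 8.34. All 4 selected-line arrays were above both parent arrays, an order that 26.2% of all genes showed in M1 and 42.6% in I1. The difference was 1.02 ± 0.48 in M1 (limma adjusted p = 0.388) and 0.54 ± 0.48 in I1 (adjusted p = 0.712), and the standard deviation between the 2 M1 arrays was 1.04. Without M1 replicate 1 the M1 value of Snhg3 was 1.76, and without M1 replicate 2 it was 0.29, so its size rests on single arrays. The BL185 values of Snhg3 lay within or below the range of the array medians, so its level there cannot be told from background.

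**Figure D2:**
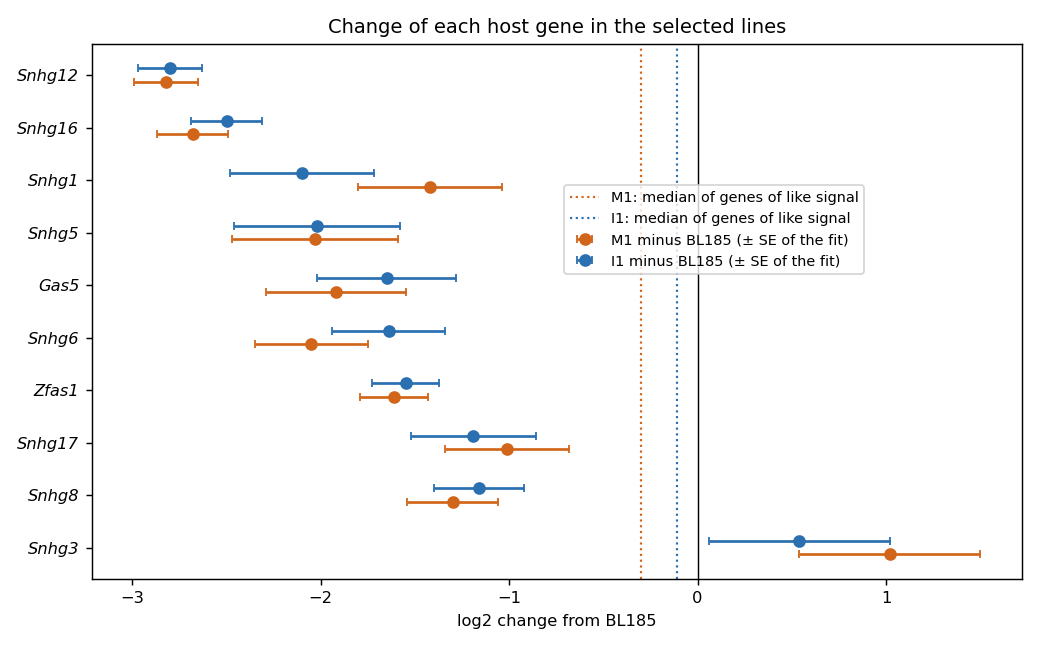
Log2 change from BL185 of each host in M1 and I1 (points, with SE of the limma fit as bars), and the median change of genes of like mean signal as dotted lines (-0.30 in M1, -0.11 in I1). For M1 and for I1, 9 hosts lie left of 0 and of the matching dotted line, and Snhg3 lies to the right of 0.

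No host was called between the selected lines. The I1 minus M1 values of the hosts ran from -0.68 for Snhg1 to 0.40 for Snhg6, with a median of 0.04, and 0 hosts had both I1 arrays below or above both M1 arrays, beside 7.96% and 8.13% of all genes. By limma 0 hosts were called, as were 0.0% of all genes in either direction, and 0 hosts passed an unadjusted p of 0.05, as 2.25% of all genes did. The spread of the M1 arrays set the precision, since the SEs of these differences ran from 0.17 for Snhg12 to 0.48 for Snhg3. Without M1 replicate 1, 4 hosts (Snhg1, Snhg3, Snhg5 and Snhg17) were called lower in I1 than in M1, with 13.4% of all genes called lower. Without M1 replicate 2, 5 hosts (Gas5, Snhg5, Snhg6, Snhg8 and Snhg16) were called higher in I1, with 36.1% of all genes called higher. Snhg5 was called in opposite directions by these 2 fits. All 10 hosts were lower on M1 replicate 1 than on M1 replicate 2. The mean over the 10 hosts was 12.23 and 12.12 on the BL185 arrays, 10.2 and 10.98 on the M1 arrays, and 10.54 and 10.59 on the I1 arrays.

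Gas5, Snhg1, Snhg5 and Snhg16 were read by several probe sets, and these did not all show the same difference. The 10 host probe sets with a mean above 10 were all lower in both lines, as were 61.1% of all probe sets above 10. All 10 were so without overlap, as were 40.6% of all probe sets above 10. Of the 10 dimmer ones 5 were lower in both, overlap aside, as were 32.6% of all dimmer probe sets. A second bright Gas5 probe set read 14.09 and 14.09 in BL185, 11.44 and 12.69 in M1 and, in I1, 12.08 and 12.45. The dim Gas5 probe sets had M1 replicate 2 at the parent's level, the first reading 9.35 and 9.31 in BL185, 7.35 and 9.38 in M1 and, in I1, 7.96 and 8.04. For Snhg1, the 3 bright probe sets gave -0.87, -1.42 and -1.86 in M1 and -1.35, -2.10 and -2.53 in I1. Its 2 dim ones gave 0.22 and 0.64 in M1 and -0.27 and -0.02 in I1.

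The 2 dim Snhg5 probe sets, at 7.13 to 9.02 on all arrays, were higher by 0.61 and 0.36 in M1, against the -2.03 of the bright one. The dim Snhg16 probe set was lower by less than the bright one, at -0.45 in M1 and -0.71 in I1. Which transcript forms the dim probe sets read was not tested. In the limma fit over all 34945 probe sets, Snhg12, the bright Snhg16 probe set and Zfas1 were called lower in M1, with 0.532% of probe sets, and also in I1, where Zfas1 had an adjusted p of 0.0479 and 0.358% of probe sets were called lower. A probe set naming both Snora24 and Snhg8, outside the rule, read 14.71 and 14.61 in BL185, 13.56 and 13.92 in M1 and, in I1, 13.88 and 13.87. Another, naming both Snord47 and Gas5, overlapped the parent in both lines, at 9.33 and 8.8 in BL185, 7.87 and 9.52 in M1 and, in I1, 8.57 and 8.8.

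**Figure D3:**
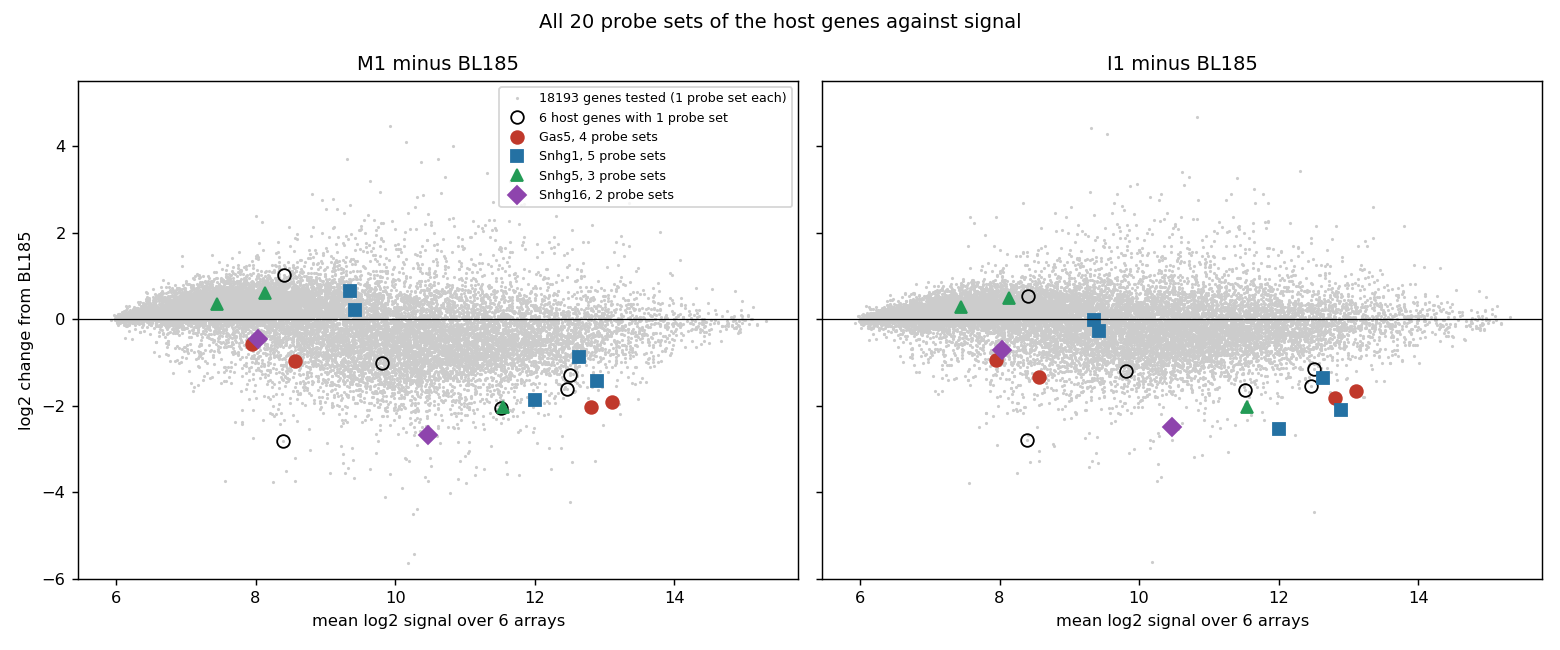
Log2 change from BL185 in M1 and in I1 for each of the 20 host probe sets, plotted against mean log2 signal, with the 18193 genes tested in grey. Host probe sets with a mean above 10 all lie below 0, and those below 10 scatter on both sides of it.

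Of 13 further noncoding genes listed as snoRNA hosts, 9 were measured (Snhg4, Snhg7, Snhg10, Snhg11, Snhg14, Snhg18, Dancr, Meg3 and Rian), with a median of -0.12 in M1 (-0.73 to 1.42) and -0.05 in I1 (-0.93 to 1.34). Snhg10 and Meg3 hold no snoRNA gene in the RefSeq annotation used here. Of all 9, 5 were below 0 in each line, beside 44.5% of all genes in M1 and 43.4% in I1. These 5 were among the 7 with a snoRNA gene inside, a split that was not planned. Snhg10 and Meg3 were above 0 in both. By limma 0 were called in either line, and 2 were lower at an unadjusted p under 0.05 in each. At that unadjusted threshold, 11.5% of all genes were lower and 3.92% higher in M1, and 7.47% were lower and 4.18% higher in I1, which is 15.4% and 11.6% in either direction. The list's M1 median was 0.07 when M1 replicate 1 was left out. Dancr read 10.02 and 9.79 in BL185, 8.86 and 9.5 in M1 and, in I1, 8.95 and 9.01, a difference of -0.73 ± 0.26 in M1 (limma adjusted p = 0.3) and -0.93 in I1. Snhg7 differed by -0.61 in M1 and -0.69 in I1. Snhg4 overlapped the parent in M1 (7.67 and 9.88 against 9.4 and 9.28). Snhg10 was higher on all 4 selected-line arrays (12.31 and 10.12 in M1, 11.54 and 10.74 in I1, against 9.84 and 9.77), by 1.42 ± 0.74 in M1. Meg3, an imprinted noncoding gene next to Rian, read 9.07 and 9.18 in BL185, 11.5 and 9.32 in M1 and, in I1, 9.68 and 10.3. Rian differed by 0.58 and 0.07, Snhg11 by 0.27 and 0.12, Snhg14 by -0.56 in M1, and Snhg18 by -0.12 in M1 and -0.05 in I1. No test compared this list with the 10 hosts.

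Protein-coding snoRNA hosts, which carry snoRNAs in the introns of translated messengers, had a median of -0.21 in M1 and -0.29 in I1 over 29 measured genes of 42 listed. Leaving out M1 replicate 1 gave an M1 median of 0.03, so its sign rests on that array. Of these genes, 24 were below 0 in M1 and 25 in I1, beside 44.5% and 43.4% of all genes. Among genes with a mean signal of at least 11.53, 72.5% were below 0 in M1 and 58.8% in I1. By limma 0 of the protein-coding hosts were called. At an unadjusted p under 0.05, 6 were lower in each line, against 11.5% of all genes in M1 and 7.47% in I1. Hspa9, a mitochondrial chaperone and snoRNA host, read 14.1 and 14.24 in BL185, 12.39 and 13.29 in M1 and, in I1, 12.83 and 13.21, a difference of -1.33 ± 0.34 in M1 (limma adjusted p = 0.183). Prpf39 differed by -1.0 and -1.05. Several of these genes sat at the top of the array, such as Rps2 at 15.07 to 15.2 on all 6 arrays, where differences are compressed.

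The mRNAs of the TOP class outside the ribosomal proteins had a median of -0.49 in M1 and -0.41 in I1 over 13 genes, of which 12 were below 0 in each line and the range was narrow, from -0.65 to 0.15 in M1. Of the genes with a mean signal of at least 11.53, the median host signal, 72.5% were below 0 in M1 and 58.8% in I1. By limma 0 of the 13 genes were called. At an unadjusted p under 0.05, 2 were lower in M1 and 3 in I1, against 11.5% and 7.47% of all genes. The elongation factor Eef2 differed by -0.51 in M1 and -0.49 in I1, and the initiation factor subunit Eif3h by -0.65 and -0.59. Leaving out M1 replicate 1 gave an M1 median of -0.23.

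The proteins that bind and assemble snoRNAs had a median of -0.21 in M1 and -0.37 in I1 over 20 measured genes, with 0 called by limma and 3 in M1 and 5 in I1 past an unadjusted p of 0.05, against 15.4% and 11.6% of all genes. The M1 median was 0.03 without M1 replicate 1 (3 called lower and 5 higher), 0.05 after quantile normalization and 0.12 after cyclic loess. Znhit6, an assembly factor of box C/D particles, read 12.38 and 12.5 in BL185, 9.81 and 11.3 in M1 and, in I1, 10.71 and 11.21, a difference of -1.89 ± 0.51 in M1 (limma adjusted p = 0.199). Nop10, a core protein of box H/ACA particles, differed the other way, by 0.67 ± 0.19 in M1 and 0.83 in I1. Nop58, a box C/D core protein, differed by -1.61 and -1.71, and Fbl, the methyltransferase of those particles, by -0.02 and -0.14. The values of Nop58 and Fbl are shown for their roles and were chosen after they were seen.

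The decay pathway was read through its factors and through its coding targets. Of 21 measured nonsense-mediated decay factors, 17 were below 0 in each line, with medians of -0.57 in M1 and -0.50 in I1. Of all genes, 44.5% were below 0 in M1 and 43.4% in I1, and of the genes in the hosts' range of signal 64.4% and 57.2%. By limma 0 of the factors were called. At an unadjusted p under 0.05, 3 were lower in each line, against 11.5% of all genes in M1 and 7.47% in I1. Smg1, the kinase that phosphorylates Upf1, read 11.58 and 11.16 in BL185, 9.13 and 10.61 in M1 and, in I1, 9.79 and 9.68, a difference of -1.50 ± 0.5 in M1 (limma adjusted p = 0.269) and -1.64 in I1. Nbas differed by -0.90 and -0.67. The decay helicase Upf1 differed by -0.74 and -0.45 and Upf2 by -1.0 and -1.04, both chosen after their values were seen. Without M1 replicate 1 the factors' M1 median was -0.16, with 3 called lower and 1 higher.

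Among 16 measured protein-coding genes cited as targets of nonsense-mediated decay, the median was -0.18 in M1 and -0.22 in I1. By limma 2 were called lower in each line, against 0.605% of all genes in M1 and 0.319% in I1. At an unadjusted p under 0.05, 6 were lower in each line, against 11.5% and 7.47% of all genes. At that threshold 1 was higher in M1 and 0 in I1. At least 2-fold lower were 5 in M1 and 6 in I1, and 0 were at least 2-fold higher. The M1 median was 0.12 without M1 replicate 1 (6 called lower and 6 higher), 0.06 after quantile normalization and 0.10 after cyclic loess. The 2 called genes, Ddit3 and Trib3, are stress-response genes that are also known as targets of the transcription factor Atf4. Ddit3, which encodes CHOP, read 13.21 and 13.14 in BL185, 10.12 and 10.35 in M1 and, in I1, 10.69 and 10.76, a change of -2.94 ± 0.18 in M1 (limma adjusted p = 0.0121) and -2.45 in I1 (adjusted p = 0.0262). Trib3, a pseudokinase, read 13.33 and 13.36 in BL185, 10.46 and 11 in M1 and, in I1, 11.12 and 11.27, a change of -2.62 ± 0.24 in M1 (limma adjusted p = 0.0235) and -2.15 in I1 (adjusted p = 0.0461).

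Long noncoding genes that host no snoRNA had a median of -0.29 in M1 and -0.31 in I1 over 16 genes, with 0 called by limma and 7 in M1 and 8 in I1 past an unadjusted p of 0.05, against 15.4% and 11.6% of all genes. This list's M1 median was -0.21 without M1 replicate 1. Pvt1, the noncoding neighbour of Myc, read 10.9 and 10.74 in BL185, 8.39 and 9.39 in M1 and, in I1, 9.05 and 9.26, a difference of -1.93 ± 0.35 in M1 (limma adjusted p = 0.0958) and -1.66 in I1 (adjusted p = 0.159). Oip5os1 differed by -0.91 and -1.22. The median of the 10 hosts lay further from 0 in both lines than that of any of these 7 gene lists, which is a description of lists chosen with the data known. Outside these 7, 2 lists described below had medians of nearly that size. The MYC family stood at -1.66 in M1 and -1.28 in I1, and the proliferation markers at 1.73 and 1.55.

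**Figure D4:**
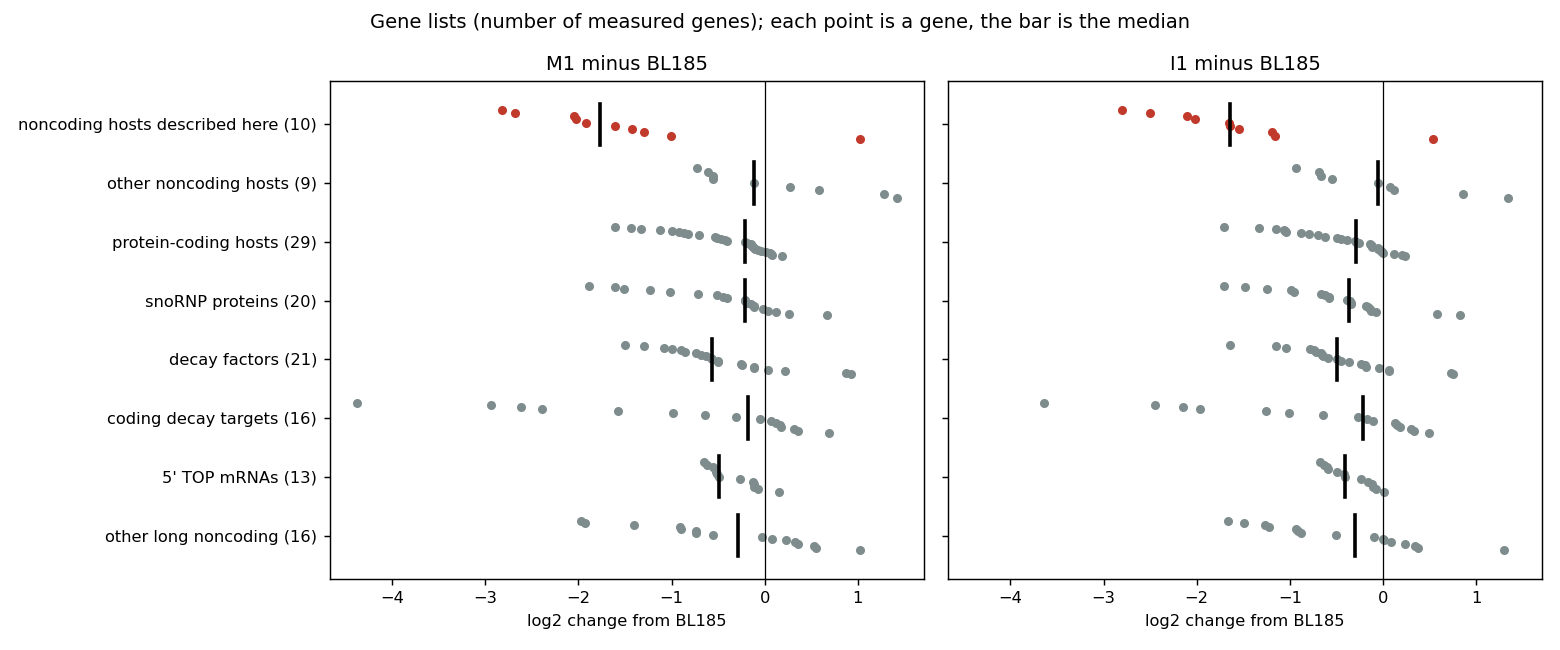
Log2 change from BL185 in M1 and I1 for every measured gene of the 10 hosts and of the 7 comparison lists (points, with each list's median as a bar). The 10 hosts have the lowest median in both panels, and most points of the other lists lie between -1 and 1.

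MYC-family factors drive transcription of ribosome biogenesis genes and were read for that reason. Mycn fell in both selected lines, from 15.36 and 15.43 in BL185 to 11.16 and 11.19 in M1 and, in I1, to 10.84 and 11.04, a change of -4.22 ± 0.17 in M1 (limma adjusted p = 0.0076) and -4.45 in I1 (adjusted p = 0.0085). Its BL185 signal was at the top of the array, so the size is not exact. Myc read 13.17 and 13.44 in BL185, 10.12 and 11.56 in M1 and, in I1, 11.18 and 11.78, with a difference of -2.47 ± 0.51 in M1 (limma adjusted p = 0.121) and -1.83 in I1 (adjusted p = 0.251). Mycl differed by -0.85 and -0.73, and Max, the partner of the family, by -0.48 and -0.65. Proliferation markers ran the other way, with 3 of 7 called higher in M1 and 2 in I1, against 0.275% and 0.192% of all genes. The number called in M1 was 0 with median centring or with the replicate number in the fit. It was 7 after quantile normalization or cyclic loess. Mki67, the Ki-67 antigen, rose by 3.37 in M1 (limma adjusted p = 0.0286) and differed by 2.90 in I1 (adjusted p = 0.0516), Birc5 rose by 2.92 and 2.69, and Mcm5 rose by 2.65 and 2.25. Whether either group bears on the host values was not tested.

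The genes whose profile over the 6 arrays was most like the mean of the hosts, by Pearson r, were Txlng, Atf6 and Gcc1, each with r = 0.998. Atf6, a sensor of stress in the endoplasmic reticulum, read 12.25 and 12.21 in BL185, 9.26 and 10.3 in M1 and, in I1, 9.84 and 9.84. High likeness was common, since 489 of 5659 genes considered had an r above 0.95. The 6 arrays differ in depth of signal, and many genes share a gap between the parent and the selected lines. The part of either in these r values was not tested.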

How the data were processed

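Each of 6 arrays gave 1 value per probe set. The authors deposited log2 values made with RMA and the affy package, per the submitters' processing notes. No version or setting is given in the sources used here. The deposited arrays differ in median (7.87 to 8.11) and in standard deviation (1.62 to 1.97). They therefore do not share a common distribution, and quantile normalization changes them. The deposited log2 values ran from 5.8 to 15.43. Of 45101 probe sets, 34945 named 1 gene and 932 several; 34741 were matched by Entrez identifier to RefSeq. The number of arrays limits the precision, and a dim gene may be at background.

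Of a gene's probe sets, that of the highest mean signal was used. In limma 3.58.1 (R 4.3.3), 1 mean for each line was estimated from all 6 arrays (3 residual and 2.27 prior degrees of freedom), with eBayes and Benjamini-Hochberg adjustment over 18193 genes within a contrast (threshold 0.05). SEs are from this fit. The fit was also run on simulated data in which every line had the spread of the least variable line. That run therefore does not cover the unequal spread of the lines. Where a fit leaves out an array, the lone array of that line is taken to vary as the remaining lines do. Tables were handled in Python 3.11.15 (pandas 2.3.3, numpy 2.4.6) and figures drawn with matplotlib 3.10.9.

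The hosts and the 13 gene lists were chosen with earlier results of these data known. Named genes were all hosts, all MYC-list genes and noncoding hosts, from each other list up to 3 called genes per contrast (or, with none called, the 2 with the smallest p in M1), and the 3 genes most like the mean host profile among genes at or above the median signal with a range of at least 1. Genes named outside this rule are said to be so, except markers given as ranges and Rps2, also chosen after their values were seen. Promoter windows are RefSeq's, 250 bases before to 50 after the start. Alternatives covered scaling, filtering, probe set choice, weights, array subsets and replicate numbers.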

Additional observations from a re-analysis of the deposited data

How the results depend on the processing

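With 2 arrays per line, the counts of calls moved widely. Of the 17 settings, 9 leave the host estimates of a given comparison as they are, so signs were compared in the other 8 only: 0 of 80 host values changed sign in M1 minus BL185, 0 of 80 in I1 minus BL185 and 13 of 80 in I1 minus M1. Median centring among these 8 moves all genes alike. Leaving out 1 array could not change a sign against BL185, since no host overlapped the parent by its brightest probe set. Those outcomes were fixed in advance and are no sign of stability. The 3 hosts called in M1 became 5 with array weights, 9 with cyclic loess, 8 with quantile normalization, 0 when the arrays of only the 2 lines compared were used, and 0 to 10 when 1 array was left out. The 2 called in I1 became 10 with array weights, 9 with cyclic loess, 8 with quantile normalization, 1 with median centring, 10 with the 2 lines alone, and 0 to 10 when 1 array was left out. The 0 called in I1 minus M1 became 0 to 5 when 1 array was left out. The host median in I1 was -1.65, and -1.50 with cyclic loess, -1.53 with quantile normalization and -1.35 with each gene's probe sets averaged. The cause of these shifts was not tested.

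Over all genes the 160 calls in M1 became 312 with array weights, 1831 with cyclic loess, 1176 with quantile normalization (543 lower, 633 higher, against 110 and 50), 57 with median centring, 338 with each gene's probe sets averaged, and 4369 or 12879 without M1 replicate 1 or 2. The 93 in I1 became 8551, 1544, 981 (373 lower, 608 higher, against 58 and 35) and 23, and 8481 with the 2 lines alone. A fit of every probe set called 243 in M1 and 172 in I1, and leaving out a BL185 or I1 array gave 0 in both. Median centring moved the median of all genes in M1 from 0.07 to -0.06.

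Replicate numbers are shared by the lines in the titles, but no label ties equal numbers to a batch, and the deviations of same-numbered arrays correlated at -0.13 (BL185 with M1), 0.16 (BL185 with I1) and 0.37 (M1 with I1) over genes. With the replicate number as a block, 2 hosts were called in M1 (38 genes in all) and 0 in I1 (1 gene). With the BL185 numbers exchanged, an alternative chosen after seeing the data, 2 hosts were called in M1 (76 genes) and 0 in I1.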

Other observations

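Genes that start within 1000 bases of a host on the opposite strand were looked up by a rule chosen after values were seen. Znfx1, which shares a start region with Zfas1, read 9.52 and 9.59 in BL185, 8.99 and 9.02 in M1 and, in I1, 8.6 and 8.77, a difference of -0.55 ± 0.17 in M1 (limma adjusted p = 0.238) and -0.87 ± 0.17 in I1 (adjusted p = 0.135), beside the -1.61 and -1.55 of Zfas1. Zbtb37, whose annotated start lies 317 bases from that of Gas5, was below the array medians on every array, from 7.04 to 7.23.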
